A study of Mus musculus with 6 samples.

Results

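Keratins are the intermediate filament proteins of epithelial cells, and 9 of their genes were followed here in mouse brain endothelial cells: Krt7, Krt8, Krt10, Krt14, Krt16, Krt17, Krt18, Krt19 and Krt80. They are 9 of the 49315 genes in a table of RNA sequencing counts. Members were found by gene symbol. Krt16 was chosen by its strong fall in the count comparison between the groups, so its difference between the groups is given as a description without a test.

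The cells were bEND.3, an established endothelial line from mouse brain, in which the study asked what the long non-coding RNA Gm39822 does. In 4 samples the cells were transfected with a custom antisense LNA GapmeR against Gm39822 at 100 nM, and in 2 samples with a negative control LNA GapmeR, also at 100 nM. A GapmeR is a short antisense strand with DNA in its middle, through which RNase H cuts the paired RNA. Both groups were transfected with the same lipid reagent, and the labels give no untransfected cells. Only these negative controls were analysed here, fewer than the paper describes. All samples are of 1 cell line, and nothing in the labels says whether they came from separate cultures, so p-values measure the spread between these samples, which may be technical.

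Keratins fall into acidic type I and basic type II proteins, and a filament forms only when a type I chain pairs with a type II chain. Krt8 and Krt18 are the usual pair of simple epithelia, joined there by Krt7 and Krt19. Krt14 belongs to basal layers of stratified epithelia and Krt10 to their differentiating layers. Krt16 and Krt17 are induced in wounded or inflamed skin, where Krt16 pairs with the Krt6 proteins. Endothelial cells build their intermediate filaments mainly from vimentin, and most keratin genes are silent in them.

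Libraries held 29261988 and 34266811 counts in the negative controls and 30264086 to 37117934 with the GapmeR. Counts were scaled to CPM, counts relative to a library total after correction by TMM factors. The upper limit that a count of 0 allows is 3 counts, which was worth 0.0770 to 0.110 CPM, and limits of this kind cover counting error only. Gm39822 itself had 61 and 56 counts in the controls and 2, 1, 4 and 2 with the GapmeR, a log2 change (fold change of GapmeR over control on the log2 scale) of -4.82 (standard error, SE, 0.41, edgeR adjusted p = 8.8e-08, from its quasi-likelihood test with Benjamini-Hochberg adjustment over all genes tested). GapmeR samples 3 and 4 carried more macrophage marker RNA than the other libraries, with a summed level of 382 and 412 CPM over that list against 180 to 238 CPM.

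Krt16 (ENSMUSG00000053797) had 1314 and 1754 counts in the negative controls and 133, 124, 111 and 89 counts in GapmeR samples 1 to 4. On the CPM scale these were 48.0 and 55.0 in the controls and 3.93, 3.18, 3.58 and 2.76 after GapmeR treatment. Every GapmeR sample lay far below both controls. The mean level was 51.5 ± 4.94 CPM in the controls (SD, n = 2) and 3.36 ± 0.505 CPM in GapmeR samples (SD, n = 4), which is 15.3 times lower, with a log2 change of -3.94 (SE 0.11). In the negative controls Krt16 was not a trace transcript, since its CPM was above that of 76.7% of the 18234 genes that passed the filter of at least 5 counts in at least 2 samples. Its fold change was the 11th lowest of those 18234 genes, and the 4th lowest of the 12772 with a mean of at least 1 CPM. A low rank was implied by its choice for a strong fall, so the ranks only describe it. In bulk RNA, fewer cells that express a gene and less of its RNA per cell cannot be told apart.

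**Figure D1:**
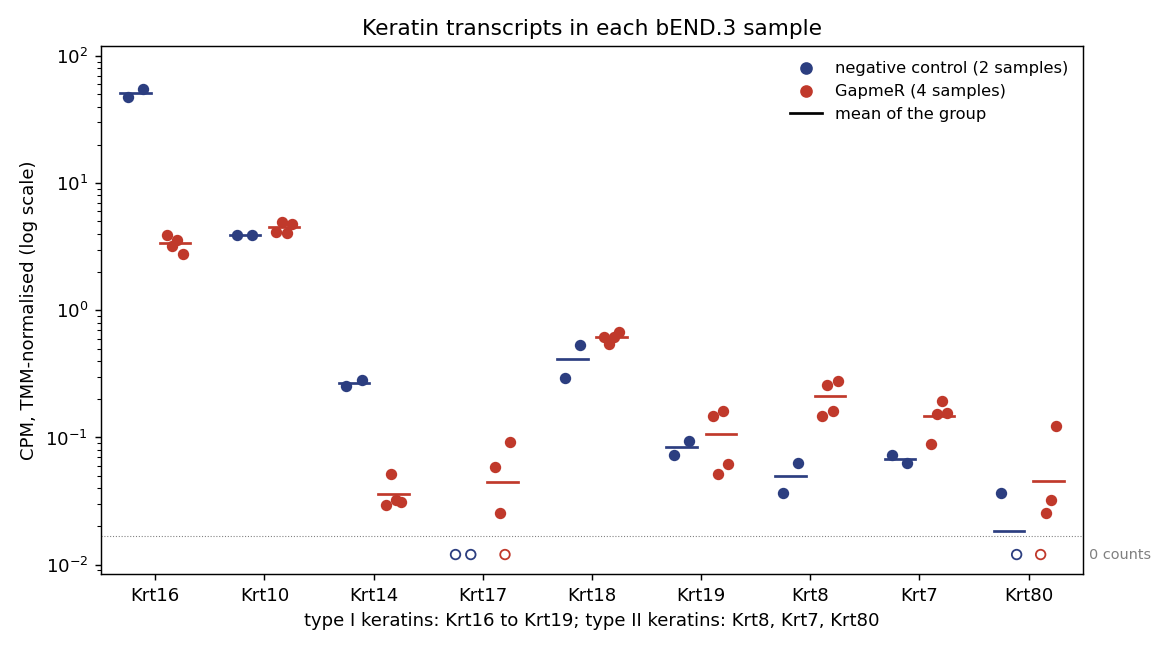
Level of each keratin in each sample, in TMM-normalised CPM on a log scale; points are samples, bars are group means, and open circles are samples with 0 counts. Krt16, which was chosen for its fall, is the keratin that separates most, with controls at 48.0 and 55.0 CPM and GapmeR samples at 2.76 to 3.93 CPM.

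Krt16 lies on chromosome 11 of mm10 from 100246091 to 100248902, inside the type I keratin cluster. Its close relatives Krt14, from 100203162 to 100207510, and Krt17, from 100256215 to 100261029, lie 38.6 and 7.31 kb away. The sequences that follow are shown because they let the likeness of these genes be seen. They are the stretch of 150 coding bases in which Krt16 and Krt14 differ least, among stretches that align without gaps in all genes shown. They are written 5′ to 3′ on the coding strand from the GENCODE transcripts of GRCm39, and capitals mark bases that differ from Krt16. The stretch of Krt16 lies in exon 1 on the minus strand, at chr11:100139257-100139406 of GRCm39, and those of the other genes also lie in exon 1.
Krt16: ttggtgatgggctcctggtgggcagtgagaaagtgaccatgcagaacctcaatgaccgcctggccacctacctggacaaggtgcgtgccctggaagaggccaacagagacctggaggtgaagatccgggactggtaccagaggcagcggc
Krt14: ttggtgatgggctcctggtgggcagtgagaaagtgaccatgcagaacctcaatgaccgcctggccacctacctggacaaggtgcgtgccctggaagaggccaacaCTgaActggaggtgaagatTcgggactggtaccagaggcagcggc
Krt17: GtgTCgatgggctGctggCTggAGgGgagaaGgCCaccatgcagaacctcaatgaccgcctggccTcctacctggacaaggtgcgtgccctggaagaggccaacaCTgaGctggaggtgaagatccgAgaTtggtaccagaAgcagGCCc
Krt42: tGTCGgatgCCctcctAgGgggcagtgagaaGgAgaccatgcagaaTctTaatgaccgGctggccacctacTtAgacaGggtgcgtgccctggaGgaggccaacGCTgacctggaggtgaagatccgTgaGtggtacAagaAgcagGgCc
Krt14 differed from Krt16 at 4 of the 150 bases, Krt17 at 22 and Krt42 at 26. Over all aligned coding bases Krt14 was 84.9% identical to Krt16, Krt17 74.5% and Krt42 74.0%. Of all 50-base windows in the Krt16 transcript, 36.0% also occur in a transcript of another gene, namely Gm11597, Krt14 or Krt17. At the read length of 150 bases the share was 17.5%, and Gm11597 was the only gene that shared such windows.

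Per kb of exon, which allows levels of different genes to be compared, Krt16 held most of the keratin RNA in the negative controls. Its mean level was 31.5 CPM per kb in the controls, against 1.84 for Krt10 and 0.287 for Krt18. After GapmeR treatment Krt16 was at 2.41, 1.95, 2.19 and 1.69 CPM per kb in samples 1 to 4 and Krt10 at 1.96, 2.34, 1.89 and 2.26, so that neither was above the other beyond their spread. Krt18 followed at a mean of 0.427 CPM per kb, Krt8 at 0.108, and every other member was at or below 0.0569. In the controls the order below Krt18 was Krt14 at 0.143, Krt19 at 0.0450 and Krt8 at 0.0253 CPM per kb, and Krt19 and Krt8 there rested on 5 and 3 counts in all.

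Of the summed level of all 53 keratins in the table, Krt16 took 92.4% and 92.5% in the controls and 43.6%, 36.2%, 42.3% and 33.0% in GapmeR samples 1 to 4. The share of Krt10 was 5.83% and 5.02% in the controls and 35.5%, 43.5%, 36.6% and 44.0% in GapmeR samples. The whole keratin sum was 31.8 and 36.4 CPM per kb in the controls and 5.12 to 5.51 in GapmeR samples, so the larger share of Krt10 stood against a smaller sum. The 8 members besides Krt16 summed to 4.71 and 4.92 CPM in the controls and to 5.22 to 6.22 CPM in GapmeR samples.

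**Figure D2:**
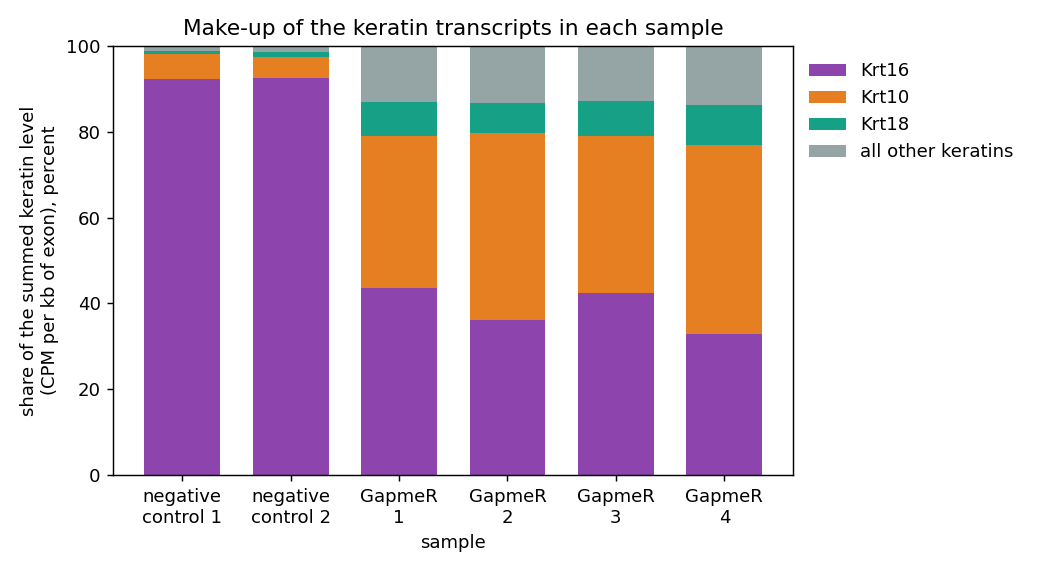
Share of each keratin in the summed keratin level of a sample, in percent of CPM per kb of exon; each bar is 1 sample. Krt16 takes 92.4% and 92.5% in the negative controls and 33.0% to 43.6% in GapmeR samples, where Krt10 takes 35.5% to 44.0%.

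Because a keratin filament needs both types, the counts of all type I and all type II keratins were set side by side in each sample. Type I keratins had 1446 and 1912 counts in the negative controls and 317, 367, 271 and 283 in GapmeR samples 1 to 4. Type II keratins had 8 and 19 counts in the controls and 32, 37, 35 and 37 in GapmeR samples. Type I counts were thus 181 and 101 times the type II counts in the controls and 7.65 to 9.92 times after GapmeR treatment. Both groups of samples had an excess of type I RNA, and no test was made because Krt16 dominates the control values.

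Of the 8 members besides Krt16, 6 passed the filter and were tested, of which 1 was higher, Krt8, and 1 was lower, Krt14, at an edgeR adjusted p under 0.05. Among all 18234 genes tested, 25.4% were higher and 20.0% lower by the same rule, and nothing is read from 1 of 6 in each direction. Krt7, Krt8 and Krt19 passed the filter only through GapmeR samples and Krt14 only through the controls, as did 1913 and 65 of all genes tested, so the calls of Krt8 and Krt14 are on genes that the filter kept for the group where they are high. In edgeR without a filter the adjusted p was 0.00399 for Krt14 and 0.0644 for Krt8. With library size as the only scaling, 74.1% in place of 55.9% of all calls were higher. Among the 5462 tested genes with a mean under 1 CPM, where all tested members but Krt16 and Krt10 lie, 26.3% were higher and 5.38% lower. The GapmeR libraries also held more genes with counts, 22830 to 23566 against 20573 and 21087, and the part of this in the low keratin counts was not tested.

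Krt14 (ENSMUSG00000045545), the type I keratin of basal cells, had 7 and 9 counts in the negative controls and 1, 2, 1 and 1 in GapmeR samples 1 to 4. All GapmeR samples were below both controls, as were 12.2% of the tested genes with a mean under 1 CPM and 27.3% of all genes tested. The mean fell from 0.269 ± 0.0187 CPM in the controls (SD, n = 2) to 0.0360 ± 0.0103 CPM after treatment (SD, n = 4), with a log2 change of -2.75 (SE 0.68, edgeR adjusted p = 0.00352). From the summed counts alone the ratio of GapmeR to control was 0.136, with an exact (Clopper-Pearson) 95% interval of 0.0390 to 0.389 that covers counting error only. Krt14 passed the filter only through the controls, where it is high, so this p is a description and not support. In the 13 alternatives that kept Krt14, its log2 change stayed between -2.97 and -2.50. In the stretch printed above, chosen for likeness, Krt14 differs from the more abundant Krt16 at 4 of 150 bases. Of the 150-base windows of Krt14, 0 occur in a transcript of another gene. Of its 50-base windows 13.4% do, in Krt16 or Krt17. How many Krt14 counts were reads of Krt16 was not tested.

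Gm11597, an unprocessed pseudogene that GENCODE places among the type I keratins and that holds stretches of the Krt16 sequence, was looked up after its values were seen. It lies between Krt14 and Krt16, at 100228700 to 100232084 of chromosome 11 in mm10. Its counts were 5 and 7 in the negative controls and 0 in every GapmeR sample. Against the limit of 3 counts per library it was at least 2.26-fold lower. It was chosen for these values and passed the filter only through the controls, so no test is given. How many reads of Gm11597 came from Krt16 was not tested.

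Krt10 (ENSMUSG00000019761), the keratin of differentiating epidermis, was the next most abundant member. It had 108 and 124 counts in the negative controls and 141, 194, 125 and 155 in GapmeR samples 1 to 4. On the CPM scale every GapmeR sample was above both controls, at 4.16, 4.98, 4.03 and 4.80 against 3.94 and 3.89. This was also so for 31.9% of all genes tested, and 59.2% had groups that did not overlap in 1 direction or the other. The means were 4.49 ± 0.468 CPM after treatment (SD, n = 4) and 3.91 ± 0.0404 CPM in the controls (SD, n = 2), with a log2 change of 0.20 (SE 0.16) that did not pass the test (edgeR adjusted p = 0.320). Krt10 lies in the same cluster, on chromosome 11 from 99385254 to 99397449.

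Krt19 (ENSMUSG00000020911), a type I keratin of simple epithelia that lacks the usual tail domain, had 2 and 3 counts in the controls and 5, 2, 5 and 2 in GapmeR samples. The groups overlapped, and the log2 change was 0.29 (SE 0.81, edgeR adjusted p = 0.800). The ratio of the summed counts was 1.22, with an exact 95% interval of 0.415 to 4.33, so a change of either sign within that range was not detectable at this depth. Krt17 (ENSMUSG00000035557), the nearest neighbour of Krt16 and like it a keratin of injured skin, had 0 counts in both controls and 2, 1, 0 and 3 in GapmeR samples. All of these are at or under 3 counts, so Krt17 was not tested and no fold is given. Krt19 lies on chromosome 11 from 100140810 to 100145926.

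Krt8 (ENSMUSG00000049382) and Krt18 (ENSMUSG00000023043), the type II and type I chains of the simple epithelial filament, both had higher means after GapmeR treatment. Krt8 had 1 and 2 counts in the negative controls and 5, 10, 5 and 9 in GapmeR samples 1 to 4, so that every GapmeR sample was above both controls, as in 35.1% of the tested genes with a mean under 1 CPM. Its mean was 0.0496 ± 0.0185 CPM in the controls (SD, n = 2) and 0.211 ± 0.0663 CPM in GapmeR samples (SD, n = 4), a log2 change of 1.99 (SE 0.76, edgeR adjusted p = 0.0424). The count ratio was 4.21, with an exact 95% interval of 1.31 to 21.6 that covers counting error only. The call of Krt8 rests on few counts, in a gene that the filter kept only through its GapmeR samples. It was lost in 8 of 13 alternatives, among them DESeq2's Wald test (adjusted p = 0.139) and the fits without negative control 1, negative control 2, GapmeR 2 or GapmeR 4 (edgeR adjusted p = 0.0781 to 0.184). Of the 50-base windows of Krt8, 29.7% also occur in a pseudogene, Krt8-ps, or in the antisense non-coding gene Gm36026. Of the 150-base windows 8.51% are shared, with Krt8-ps only. Krt8-ps had 2 and 3 counts in the controls and 4, 2, 5 and 2 in GapmeR samples.

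Krt18 had 8 and 17 counts in the negative controls and 21, 21, 19 and 22 in GapmeR samples. After scaling, all GapmeR samples lay above both controls, as in 35.1% of the tested genes with a mean under 1 CPM. Their levels were 0.539 to 0.681 CPM against 0.292 and 0.533 CPM. The gap to the higher control was small, and the log2 change of 0.54 (SE 0.37) did not pass the test (edgeR adjusted p = 0.250). Both genes lie in the type II keratin cluster on chromosome 15 of mm10, Krt8 from 101996711 to 102004342 and Krt18 from 102028216 to 102032026.

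Since Krt8 and Krt18 pair in 1 filament, their balance was compared directly. Krt8 counts divided by Krt18 counts were 0.125 and 0.118 in the negative controls and 0.238, 0.476, 0.263 and 0.409 in GapmeR samples 1 to 4. All GapmeR ratios were above both control ratios. The mean log2 ratio was 1.45 higher after GapmeR treatment. With 1 count added to each gene the difference was 0.92, so its size depends on how the low counts are handled. A 2-sided exact permutation test of the ratio gave p = 0.0667. This is the smallest p that 15 splits of 4 against 2 samples allow, so the test cannot decide whether the ratio differs. Krt8 also passed the filter only through GapmeR samples, where it is high, so this p is a description and not support.

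The remaining type II members stayed near the limit of detection. Krt7 (ENSMUSG00000023039), a partner of simple and ductal epithelia, had 2 counts in each control and 3, 6, 6 and 5 in GapmeR samples. After scaling, Krt7 was above both controls in every GapmeR sample, as in 35.1% of the tested genes with a mean under 1 CPM. Its log2 change was 1.08 (SE 0.75, edgeR adjusted p = 0.258), and the exact 95% interval of the count ratio of 2.18 was 0.730 to 8.76. Krt80 (ENSMUSG00000037185) had 1 and 0 counts in the controls and 0, 1, 1 and 4 in GapmeR samples and was not tested. Krt7 lies on chromosome 15 of mm10 from 101412403 to 101427806 and Krt80 from 101348315 to 101370162. In the GENCODE annotation of GRCm39, exons of Krt7, Krt8, Krt10, Krt19 and Krt80 overlap those of antisense non-coding genes by 77 to 329 bases. Whether the counting used strand is not given in the sources used here. Without strand, reads that fall within those overlaps cannot be assigned to the keratin or to its antisense partner. Of these partners only Gm11940, over Krt10, was itself counted. It had 6 and 5 counts in the controls and 1, 6, 3 and 3 in GapmeR samples.

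The usual type II partners of Krt16 and Krt14 were all but unseen. Krt6a had 1 count in GapmeR sample 4 and 0 elsewhere, and Krt6b had 2 counts in each of GapmeR samples 3 and 4 and 0 elsewhere. Krt5, the partner of Krt14, had 0 and 1 counts in the controls and 0, 3, 5 and 7 in GapmeR samples, with overlapping groups (edgeR adjusted p = 0.157). Of 44 keratins in the table besides the 9 members, 14 had 0 counts in every sample and 39 had at most 5 counts in any sample. The 4 that were tested, Krt5, Krt24, Krt86 and Krt222, did not pass the test. All but Krt86 were kept by the filter only through GapmeR samples, so their tests are descriptions. Of 56 genes for keratin-associated proteins, which belong to hair, 44 had 0 counts in every sample and 1 was tested, Krtap4-16. It had 0 and 2 counts in the controls and 12, 15, 10 and 16 in GapmeR samples, a count ratio of 11.5. It passed the filter only through GapmeR samples, where it is high, so no test is given.

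Besides Krt14 and Gm11597, the genes of the cluster nearest to Krt16 had too few control counts for a fall to be seen. Krt9, Krt13 and Krt15 had 0 counts in every sample, and Krt42, 14 kb away, had at most 1 count in any sample. Beyond the cluster 5 neighbours were tested, of which 2 were lower, 1 was higher and 2 did not pass, while 45.3% of all genes tested were called in 1 direction or the other. The nearest of the 5, Eif1, a translation initiation factor 71 kb away, had 14295 and 17035 counts in the controls and 16322 to 20948 in GapmeR samples, a log2 change of 0.0028 (edgeR adjusted p = 0.980). Fkbp10, 167 kb away, had a log2 change of 0.05 (edgeR adjusted p = 0.786). Hap1, whose product binds huntingtin and which lies 98.4 kb away, had a log2 change of -0.77 (edgeR adjusted p = 0.0151). Jup, 120 kb away, had -0.36 and P3h4, 160 kb away, had 0.57 (edgeR adjusted p = 0.00307 and 0.0217). These calls were lost in at least 1 leave-one-out fit each, Hap1 without GapmeR 2 or negative control 2, Jup without negative control 1 and also with library size as the only scaling, and P3h4 without negative control 2 (edgeR adjusted p = 0.0537 to 0.204). The target of the GapmeR, Gm39822, lies on the same chromosome from 51897312 to 51909624.

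The 5 genes whose pattern was most like Krt16 were Coch, Hopx, Crisp1, Ifi206 and Akr1c18, among tested genes with a mean of at least 1 CPM. Likeness was the root mean square difference in log2 CPM over the 6 samples, after centring each gene on its mean, and it was 0.121 for Coch, 0.169 for Hopx, 0.178 for Crisp1, 0.224 for Ifi206 and 0.244 for Akr1c18. Coch, which encodes an extracellular matrix protein of the inner ear, was at 25.3 and 28.5 CPM in the controls and at 1.89, 1.95, 1.71 and 1.33 CPM in GapmeR samples. Hopx, an atypical homeodomain protein without DNA binding, was at 20.2 and 25.3 CPM against 1.61 to 1.71 CPM. In each of the 5 genes both controls were above all GapmeR samples, and the log2 fold changes were -4.23 to -3.63. These genes were chosen for this likeness, so no test is given. With 2 groups of samples so far apart, the measure mainly finds genes that fell by a like amount.

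**Figure D3:**
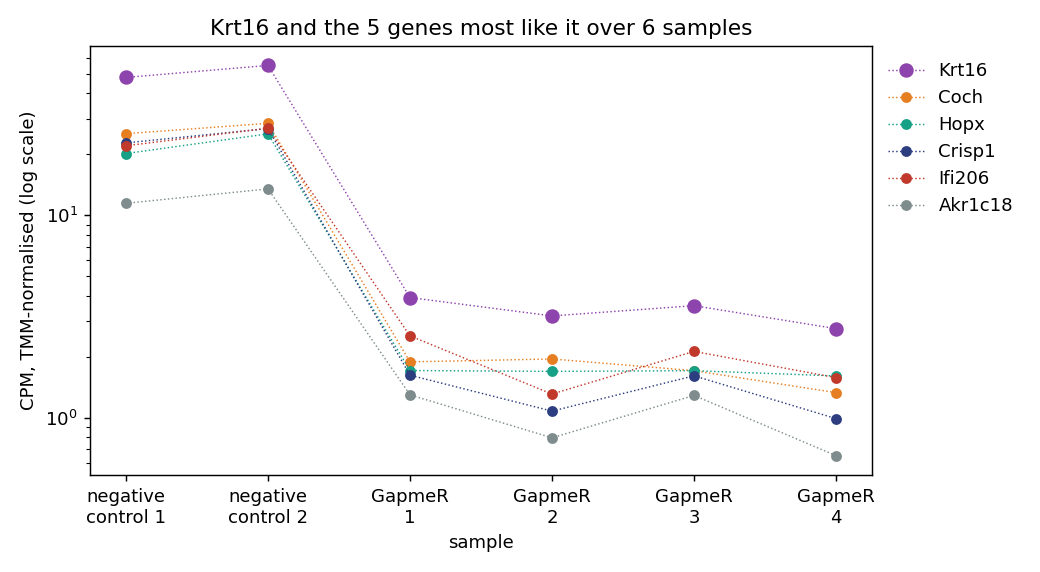
Level of Krt16 and of the 5 genes most like it in each sample, in TMM-normalised CPM on a log scale; points are samples, and dotted lines only join the points of a gene. All 6 genes are high in both negative controls and low in the 4 GapmeR samples, with Krt16 at 2.76 to 3.93 CPM there.

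The other cytoplasmic and nuclear intermediate filament genes were called in both directions. Of 15 tested, 4 were higher, 5 were lower and 6 did not pass, with a median log2 change of 0.15 against 0.03 for all genes tested. Among all genes tested 25.4% were higher and 20.0% lower, and nothing is read from the counts of this list. Vim, the vimentin gene, is named for its role as the main filament of these cells and not for its change. It had 196959 and 215117 counts in the controls and 171560 to 182499 in GapmeR samples, a log2 change of -0.40 (SE 0.09, edgeR adjusted p = 0.00203). The call of Vim was lost without negative control 1 (edgeR adjusted p = 0.0633). Prph, the neuronal filament protein peripherin, had 7 and 6 counts in the controls and 198, 187, 200 and 194 in GapmeR samples. All GapmeR samples were far above the controls, and the log2 change of 4.69 (edgeR adjusted p = 1.12e-09) was the highest of the list. Gfap, the filament of astrocytes, had -1.01, Synm, the linker synemin, 0.68 and Iffo2 -0.67 (edgeR adjusted p = 0.0227, 0.000463 and 5.47e-06). The call of Gfap was lost without GapmeR 3 or either control and with library size as the only scaling (edgeR adjusted p = 0.0503 to 0.135).

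Desmosomes and plakin proteins anchor keratins to cell junctions. Of 14 of their genes tested, 6 were higher, 3 were lower and 5 did not pass, with a median log2 change of 0.20. Pkp1, among the 6, passed the filter only through GapmeR samples, so the count is a description. A further 7 genes had too few counts to be tested, 4 of them with 0 in every sample. The shares over all genes tested were 25.4% higher and 20.0% lower. Evpl, the envelope protein envoplakin, had 34 and 67 counts in the controls and 1082, 1095, 1075 and 1081 in GapmeR samples, a log2 change of 4.24 (SE 0.17, edgeR adjusted p = 3.31e-11). Col17a1, a hemidesmosome collagen that binds the keratin-linked plaque, had 9 and 3 counts against 60, 103, 73 and 86, a log2 change of 3.51 (edgeR adjusted p = 2.37e-06). For both genes every GapmeR sample was many times above the controls. Dst, the plakin dystonin, rose by 1.42 on the log2 scale, and Jup, the junction protein plakoglobin, fell by 0.36 (edgeR adjusted p = 7.39e-10 and 0.00307). With library size as the only scaling 0 of this list were lower.

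Of 14 keratin-binding partners, all tested, 4 were higher, 2 were lower and 8 did not pass, with a median log2 change of -0.03. Over all genes tested 25.4% were higher and 20.0% lower. Sfn, the epithelial 14-3-3 protein sigma that binds keratins in growing skin cells, had 45 and 64 counts in the controls and 1034, 867, 1028 and 810 in GapmeR samples. Its log2 change was 3.91 (SE 0.21, edgeR adjusted p = 2.07e-08). Every GapmeR sample was above both controls, as in 31.9% of all genes tested. The other named partners moved little: Fbf1 had a log2 change of 0.67, Tchp, the keratin-binding trichoplein, 0.36 and the 14-3-3 gene Ywhag -0.40 (edgeR adjusted p = 1.19e-06, 0.00168 and 0.000462).

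**Figure D4:**
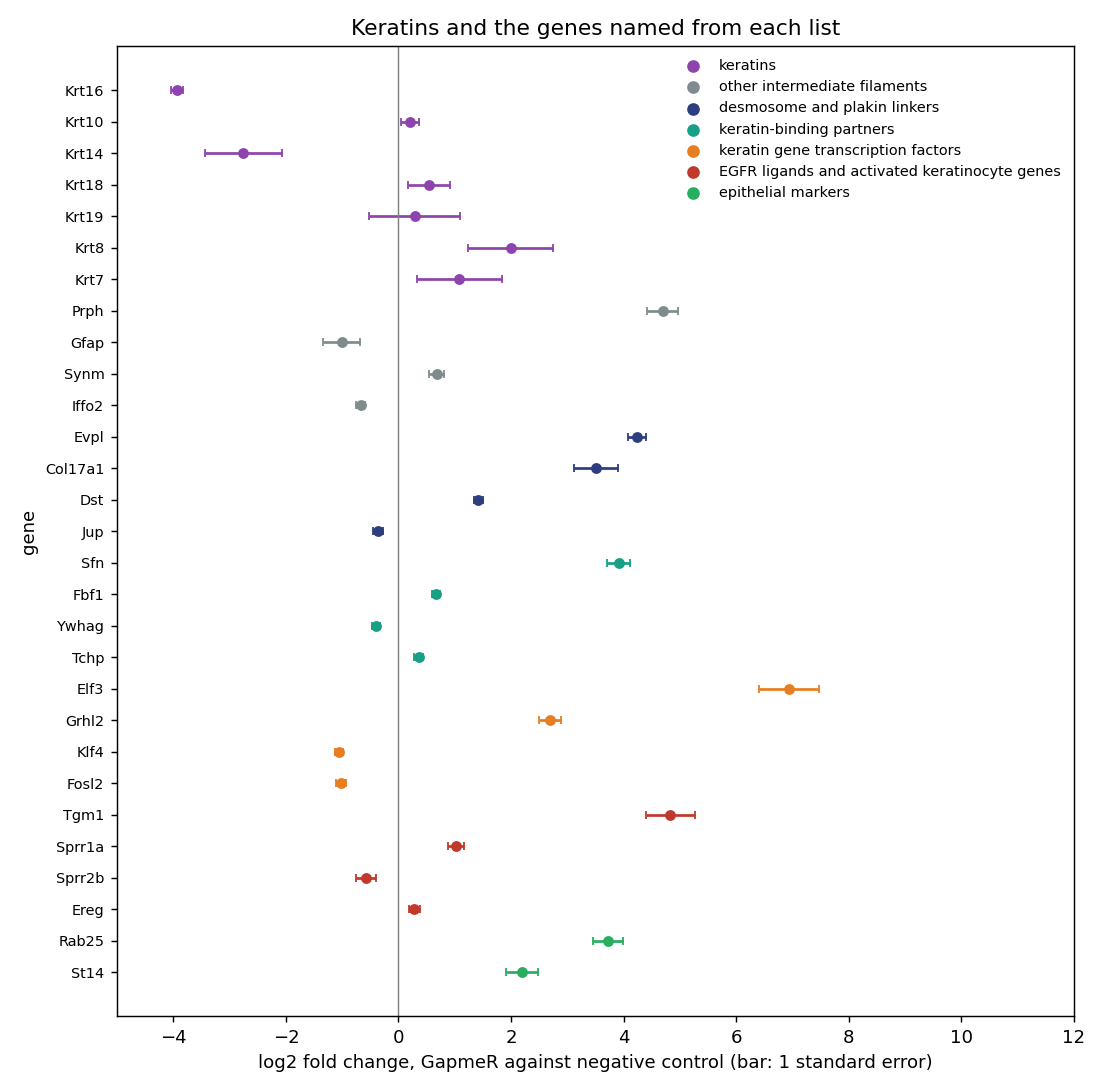
Log2 fold change of each keratin tested and of the genes named from each list, GapmeR against negative control; points are the edgeR fit and bars 1 standard error. Krt16 and Krt14 lie at -3.94 and -2.75, left of every other gene shown, and the points of Elf3 and Tgm1 rest on 1 and 4 control counts in all.

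Transcription factors that act on keratin genes were called in both directions, beside 25.4% higher and 20.0% lower among all genes tested. Of 24 tested, 5 were higher, 8 were lower and 11 did not pass, with a median log2 change of 0.01. The filter kept Elf3 and Ovol1, both among the 5, and Grhl3, which was not called, only through GapmeR samples. The count of genes higher is therefore a description. Elf3, an ETS factor of epithelia, had 1 and 0 counts in the controls and 79, 87, 85 and 91 in GapmeR samples. It passed the filter only through GapmeR samples, so its count ratio of 149 is given without a test. Grhl2, a grainyhead factor of epithelial genes, had 25 and 30 counts against 233, 230, 159 and 198, a log2 change of 2.69 (SE 0.20, edgeR adjusted p = 2.46e-08). Both factors were higher in every GapmeR sample than in the controls, as in 31.9% of all genes tested. Klf4, a factor of epidermal barrier genes, fell by 1.06 on the log2 scale and Fosl2, an AP-1 subunit, by 1.03 (edgeR adjusted p = 4.9e-09 and 1.44e-07). With library size as the only scaling 8 of this list were higher.

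Krt16 is known as a marker of activated keratinocytes, in which EGFR signalling is high. Of 12 EGFR ligands and activated keratinocyte genes tested, 4 were higher, 2 were lower and 6 did not pass, with a median log2 change of 0.01. Among all genes tested 25.4% were higher and 20.0% lower. Tgm1, the transglutaminase of the cornified envelope, had 1 and 3 counts in the controls and 63, 70, 78 and 62 in GapmeR samples. The filter kept it by its GapmeR counts alone, so its count ratio of 29.7 is given without a test. Sprr1a, a cornified envelope precursor, had 1566 and 1885 counts against 4645, 3660, 4120 and 3510, a log2 change of 1.02 (SE 0.15, edgeR adjusted p = 0.000415). Sprr2b, of a family of similar genes between which the counting could split reads, had a value of -0.58 (edgeR adjusted p = 0.0116). Ereg, the EGFR ligand epiregulin, had a value of 0.28 (edgeR adjusted p = 0.0320). The calls of Sprr2b and Ereg were both lost without either control, that of Sprr2b also with library size as the only scaling, and that of Ereg also without GapmeR 4 (edgeR adjusted p = 0.0503 to 0.219).

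Marker genes of other cell types were followed because keratins can mark epithelial cells in a culture. Of 9 epithelial markers tested, 6 were higher, 1 was lower and 2 did not pass, against 25.4% higher and 20.0% lower among all genes tested. Elf3, Cldn4 and Cldn7, all among the 6, passed the filter only through GapmeR samples, so the count is a description, and Elf3 and Grhl2 stand in the list of transcription factors too. The summed level of the 18 markers was 3.20 and 3.65 CPM in the controls and 16.3 to 18.9 CPM in GapmeR samples. Rab25, an epithelial trafficking GTPase, had 9 and 11 counts against 173, 152, 155 and 129, and St14, the membrane protease matriptase, had 20 and 12 against 89, 94, 77 and 80. The log2 fold changes were 3.72 and 2.19 (edgeR adjusted p = 1.39e-08 and 1.02e-05). The 1 lower marker was Mal2, with a log2 change of -1.21 (edgeR adjusted p = 0.0372). The other 9 markers had too few counts to be tested. Epcam and Cdh1 were among these, with 1 count of Epcam in GapmeR sample 4 only and at most 2 counts of Cdh1 in any sample. The 16 endothelial markers summed to 11833 and 12342 CPM in the controls and 9954 to 11358 CPM in GapmeR samples, with 2 higher, 7 lower and 7 that did not pass and a median log2 change of -0.16.

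Of 3 mesothelial markers tested, 2 were higher, 0 lower and 1 did not pass, but Lrrn4 and Upk3b were tested only because of their GapmeR counts. The list had sums over the 7 markers of 1.13 and 1.42 CPM in the controls and 2.10 to 3.65 CPM in GapmeR samples. Of 14 macrophage markers tested, 3 were higher and 11 did not pass, with a median log2 change of 1.09. Their sums were 180 and 185 CPM in the controls and 218 to 412 CPM in GapmeR samples. Beside the mesothelial and macrophage counts stand 25.4% higher and 20.0% lower among all genes tested. The part of any of these marker genes in the keratin values was not tested. Without GapmeR samples 3 and 4, an alternative chosen after seeing the data, Krt16 had a log2 change of -3.84, Krt14 of -2.59 (edgeR adjusted p = 0.0172) and Krt8 of 1.96 (edgeR adjusted p = 0.0877).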

How the data were processed

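RNA of bEND.3 cells in 4 GapmeR and 2 negative control samples, grouped by their titles, was analysed from gene counts. Libraries were depleted of ribosomal RNA by the authors, sequenced as pairs of 150 bases, run through bcbio-nextgen and aligned with STAR to mm10 after trimming. The submitters' processing notes list Trimmomatic 0.36, STAR 2.5.2b and Subread 1.5.2, with no roles given. The strand setting and Ensembl release are not given in the sources used here. The deposited values are raw counts per Ensembl gene, not normalized. The table holds 1 further per-sample column that matched no sample and was not used.

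Genes reaching 5 counts in 2 or more of the 6 samples were scaled by TMM and tested with edgeR 4.0.16's robust quasi-likelihood test in R 4.3.3, with Benjamini-Hochberg adjustment over all 18234 genes at a threshold of 0.05. Log2 CPM used a prior count of 2. Alternatives were DESeq2 1.42.0 (size factors and Wald test), library size only, limma-voom (limma 3.58.1), 2 other filters, a replicate block and each sample left out. The functions were tested on simulated data. Chi-square per degree of freedom between replicates was 5.41 to 25.2, so none were duplicate libraries.

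The members and the gene lists were chosen with earlier results of these data known. From each list, up to 4 genes with the largest change, an adjusted p under 0.05 and a mean of at least 1 CPM were named. Relatives of Krt16 were ranked by identity of coding sequence among type I keratins, a restriction made after a first ranking was seen, since no protein table was used. Exon lengths and transcripts came from GENCODE vM39 (GRCm39), joined by Ensembl identifier, and positions on mm10 from RefSeq GRCm38.p6. Alignments used Biopython 1.88 in Python 3.11.15.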

Additional observations from a re-analysis of the deposited data

Results flagged for a closer look

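In 4 quantities, GapmeR sample 2 stood apart from the other GapmeR samples by Dixon's test at the 95% level, which by chance marks about 1 in 20 groups. Krt14 was at 0.0514 CPM in that sample and at 0.0295 to 0.0322 CPM in the others, a difference of 2 counts against 1. The summed level of the other intermediate filament genes was 6074 CPM in that sample against 7014 to 7181 CPM in the others. The keratin-binding partners summed to 4009 CPM against 4268 to 4320 CPM, and the endothelial markers to 9954 CPM against 11260 to 11360 CPM. The quantities share a library and its scaling, so they are not independent of each other. Without GapmeR sample 2, Krt16 had a log2 change of -3.91 and Krt14 of -2.97 (edgeR adjusted p = 0.00539).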

How the results depend on the processing

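Over 14 alternatives the log2 change of Krt16 stayed between -4.02 and -3.79. Of 93 fold changes of the keratins under the alternatives, 85 kept their direction and, where tested, their side of the threshold, 8, all of Krt8, lost the call, and 0 reversed. No keratin but Krt8 was called higher, so its loss took the number of members higher from 1 to 0 in edgeR without a filter, in DESeq2's Wald test, without both GapmeR samples 3 and 4, and with the filter of at least 10 counts in every sample, which left only Krt10 to test and also took the number lower to 0. Leaving out each sample in turn gave 0 to 1 members higher and 1 lower, 3310 to 4805 genes higher and 1928 to 3979 lower, and 25 to 40 list genes higher and 16 to 28 lower, against 35 and 28 of 124 in all. Where 1 control was left, it is assumed to vary like the GapmeR samples. With library size as the only scaling, 2135 genes and 16 list genes were lower. The median log2 change of all genes was then 0.17 in place of 0.03. With at least 10 counts in every sample 23 list genes were higher. Of 280 counts within single lists, 56 moved by over 1.5 times. Among 28 other named genes, 16 of 384 fold changes lost the call and 0 reversed. The causes were not tested.

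The deviations of same-numbered GapmeR and control samples from their group means had correlations of -0.110 and 0.172 over 8870 genes. With 2 controls the deviations of 1 are the negative of the other's. The 2 correlations are thus not independent and cannot decide whether samples were paired. No label ties a number to a shared culture or day, so the samples were not treated as paired. With the replicate number as a block on the 4 samples that share one, 4530 genes were higher and 3268 lower, 0 members were higher, Krt16 had a log2 change of -3.84 and Krt8 an adjusted p of 0.116 from edgeR's quasi-likelihood test.

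The log2 difference in the ratio of Krt8 to Krt18 was 1.28 to 1.62 with each sample left out and 0.92 with 1 count added. All keratins but Krt16 and Krt10 had at most 22 counts in a sample, so changes of a few-fold in Krt7, Krt17, Krt19 and Krt80 were not detectable at this depth.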
